A study of Mus musculus with 11 samples.

Results

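The ribonuclease A family genes that lie together on mouse chromosome 14 and include Rnase12 were followed through normal and leukemic B lineage cells. They were taken by symbol from a table of RNA levels as Rnase12, Rnase11, Rnase10, Rnase9, Rnase4, Ang and Rnase6, which are 7 of the 23071 identifiers listed. These genes were chosen by their FPKM in these same libraries, where they differed between leukemia, Ebf1 heterozygous and wild type. Their levels and differences between groups are therefore given as a description. The read intervals, limma calls and outlier check given for them are part of that description and no support for a difference. Total RNA of 11 libraries from C57BL/6 mice was sequenced. The leukemia group held 5 libraries, each of a single Pax5+/- x Ebf1+/- mouse, made from lymph node cell suspensions that had been flash frozen and were labelled as leukemic B cells. The Ebf1 heterozygous group (Ebf1+/-) held 3 libraries of progenitor B cells purified on columns from bone marrow, pooled from 3, 6 and 7 mice. The wild-type group held 3 libraries of the same kind of cell and tissue, pooled from 3, 7 and 6 mice. Pax5 and Ebf1 encode transcription factors that set up and keep B cell identity. Tissue, genotype, leukemic state, purification and pooling all change together between leukemia and the bone marrow groups. Against Ebf1 heterozygous cells, the aligner named in the submitters' processing notes changes as well. The parts of these in a difference cannot be told apart. Values are FPKM, RNA fragments counted per kilobase of transcript and per unit of library size, which allow levels of different genes to be compared per length.

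Ribonuclease A family proteins are small secreted enzymes that cut RNA and are held by several disulfide bonds. Angiogenin (Ang) is best known for promoting blood vessel growth and for cutting tRNA under stress, and Rnase4 is its close genomic partner with a preference for cutting after uridine. Rnase6 is an antimicrobial ribonuclease of monocytes and macrophages. Rnase9, Rnase10, Rnase11 and Rnase12 belong to a group of divergent members known from the male reproductive tract, where Rnase10 of the mouse epididymis is needed for normal sperm function. A role for these divergent members in B cells is not part of this textbook background.

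On GRCm38, with the GENCODE M21 annotation, the genes ran from Rnase10 at 51007751 to 51010758 on the plus strand, through Rnase9 (51038459 to 51041869), Rnase11 (51049451 to 51050163) and Rnase12 (51056698 to 51057661), all 3 on the minus strand, to the plus-strand genes Rnase4 (51091077 to 51106151), Ang (51091150 to 51102009) and Rnase6 (51123908 to 51132187). They spanned 124 kb of chromosome 14. The FPKM of Rnase12 rested on its single RefSeq exon of 545 bases (51056698 to 51057242). Aligned coding sequences of any pair of these genes were 59.7% to 68.7% identical, and no identical run was longer than 12 bases. No stretch of 36 coding bases of Rnase12, Rnase11, Rnase10, Rnase9, Rnase4 or Rnase6 occurred in a transcript of another gene, while 11 of 403 such stretches of Ang did (in Ang2, Ang-ps1, Ang-ps2 and Ang-ps3). Rnase4 and Ang share 651 exon bases, which are 32.6% of the exon bases of Rnase4 and 51.1% of those of Ang, so reads on these first exons cannot be told apart.

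The 250 bases before 4 RefSeq starts (GRCm38.p6) are shown to set the gene that was highest in leukemia, its neighbour Rnase11, the start that Rnase4 and Ang share, and the 1 gene that was lower. Each is written 5′ to 3′ on the strand of its gene. The GENCODE span of Rnase12 runs on to 51057661, so its window before the RefSeq start lies inside that span. Capitals mark 2 short words read on either strand, TGGGAA (the core bound by Ikaros) and AGGAAG (a core bound by Ets factors).
Rnase12, chr14:51057243-51057492, minus strand: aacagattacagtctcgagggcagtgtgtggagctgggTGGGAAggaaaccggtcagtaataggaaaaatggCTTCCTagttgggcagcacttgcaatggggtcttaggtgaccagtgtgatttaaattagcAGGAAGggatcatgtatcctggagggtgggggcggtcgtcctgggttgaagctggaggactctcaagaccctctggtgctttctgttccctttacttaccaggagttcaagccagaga
Rnase11, chr14:51050164-51050413, minus strand: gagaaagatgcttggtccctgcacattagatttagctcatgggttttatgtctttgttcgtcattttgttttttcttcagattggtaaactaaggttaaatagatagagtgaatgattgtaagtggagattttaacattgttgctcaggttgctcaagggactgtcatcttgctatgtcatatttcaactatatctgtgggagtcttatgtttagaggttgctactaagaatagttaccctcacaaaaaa
Rnase4 and Ang, chr14:51090827-51091076, plus strand: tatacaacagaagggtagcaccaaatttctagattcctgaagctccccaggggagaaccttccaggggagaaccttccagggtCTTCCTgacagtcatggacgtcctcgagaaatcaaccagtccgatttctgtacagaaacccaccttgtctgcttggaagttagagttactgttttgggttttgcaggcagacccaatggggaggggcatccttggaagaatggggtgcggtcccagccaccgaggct
Rnase6, chr14:51123658-51123907, plus strand: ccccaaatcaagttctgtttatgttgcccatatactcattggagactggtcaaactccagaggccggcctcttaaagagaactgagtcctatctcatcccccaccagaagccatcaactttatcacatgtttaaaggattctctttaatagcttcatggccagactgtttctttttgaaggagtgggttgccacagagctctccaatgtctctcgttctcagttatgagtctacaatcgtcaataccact
The Rnase12 window held 1 match to TGGGAA and 2 to AGGAAG, and the shared window of Rnase4 and Ang held 1 match to AGGAAG. The Rnase11 window and this Rnase6 window held neither word, while the other two Rnase6 windows in RefSeq, which overlap each other, held 3 and 2 matches to AGGAAG. RefSeq lists 11 such windows for the 7 genes. Among those not shown, TGGGAA had 1 match in each Rnase10 window, in the Rnase9 window and in the other Rnase4 window. That Rnase4 window held 2 matches to AGGAAG, and the Rnase10 window at 51007679 held 1. The other words searched on both strands in all 11 were TATAAA, the palindrome bound by Ebf1 and CANNTG (the E-box). Neither TATAAA nor the Ebf1 palindrome occurred in any of the 11. CANNTG had 1 match in the Rnase12 window. It was missing only from the Rnase11 window and the shared window of Rnase4 and Ang. Among all 32851 RefSeq promoter windows of this length, 21.6% held TGGGAA, 29.5% AGGAAG, 12.4% TATAAA, 0.779% the Ebf1 palindrome and 66.2% CANNTG. No pair of matches overlapped in the windows of the 7 genes. A match describes letters, not bound factors.

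Library totals ran from 8506680 to 15313920 reads, so that 1 read on the Rnase12 exon was worth 0.120 to 0.216 FPKM. Without molecular identifiers, reads are not independent molecules, and intervals on reads cover counting error only. Ebf1 stood at 54.3 to 81.4 FPKM in leukemia, 43.4 to 86.5 FPKM in Ebf1 heterozygous cells and 83.4 to 112 FPKM in wild type. All leukemias thus lay below all wild-type pools, while the Ebf1 heterozygous pools overlapped wild type. Wild-type pool 2 and Ebf1 heterozygous pool 2 were the most alike pair of all libraries (Pearson r of 0.989 across genes, against at most 0.984 within a group). All 12 B lineage markers were detected in every library, summing to 3311 to 4519 FPKM in leukemia, 1778 to 5123 FPKM in Ebf1 heterozygous cells and 2399 to 4102 FPKM in wild type. Granulocyte markers summed to 3.82 to 8.47 FPKM in leukemia, against 2705 to 10620 FPKM in Ebf1 heterozygous cells and 627 to 3383 FPKM in wild type. Megakaryocyte and platelet markers summed to 0.382 to 1.31 FPKM in leukemia. They reached 137 to 3870 FPKM in Ebf1 heterozygous cells and 73.0 to 430 FPKM in wild type. Erythroid markers summed to 57.0 to 148, 472 to 1123 and 216 to 1179 FPKM in the same order of groups. The bone marrow libraries thus also held myeloid, platelet and erythroid RNA. T and NK cell markers summed to 31.5 to 118, 45.4 to 176 and 33.2 to 51.2 FPKM in leukemia, Ebf1 heterozygous and wild type. Dendritic and plasmacytoid dendritic cell markers summed to 75.3 to 235, 102 to 232 and 83.4 to 234 FPKM in the same order. Both lists overlapped between all groups, so the leukemia libraries also held RNA of these markers.

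Rnase12 was among the most abundant RNAs of the leukemias and scarce in wild type. It stood at 672, 721, 588, 793 and 827 FPKM in leukemias 1 to 5, at 94.4, 56.1 and 24.5 FPKM in Ebf1 heterozygous pools 1 to 3, and at 2.48, 8.82 and 3.04 FPKM in wild-type pools 1 to 3. The groups did not overlap: every leukemia lay above every Ebf1 heterozygous pool, and each of those above every wild-type pool. The means were 720 ± 95.3 FPKM in leukemia (SD, n = 5), 58.3 ± 35.0 FPKM in Ebf1 heterozygous cells (SD, n = 3) and 4.78 ± 3.51 FPKM in wild type (SD, n = 3). Ordered by level within each library, Rnase12 ranked from 85 to 115 of all genes in leukemia, from 927 to 3629 in Ebf1 heterozygous cells and from 6765 to 9552 in wild type. In such bulk libraries, more cells carrying an RNA and more RNA per cell cannot be told apart.

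The mean level of Rnase12 was 151-fold that of wild type in leukemia, and 261-fold without wild-type pool 2. Its log2 fold change, on the log2(FPKM + 1) scale, was 7.11 (SE 0.30), the highest of 10968 genes. This rank holds for that scale, since Rnase11 had a larger ratio of mean levels, 318-fold. Nothing is read from the rank, as this contrast chose the genes. Against Ebf1 heterozygous cells the mean of Rnase12 was 12.3-fold higher in leukemia (log2 fold change 3.79, SE 0.35). Ebf1 heterozygous cells had 12.2-fold the wild-type mean, or 21.1-fold without wild-type pool 2, and a log2 fold change of 3.32 (SE 0.57). The relative spread differed between groups, with a coefficient of variation of 13.2% over the single-mouse leukemias, 60.02% over the Ebf1 heterozygous pools and 73.4% over the wild-type pools. The wild-type spread rested on pool 2, without which it was 14.3% around a mean of 2.76 ± 0.394 FPKM (SD, n = 2). Wild-type pools 1 and 3 held only 15 and 24 Rnase12 reads, against 3117 to 6454 per leukemia. Counting error therefore keeps the 14.3% from being compared with the leukemia spread.

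**Figure D1:**
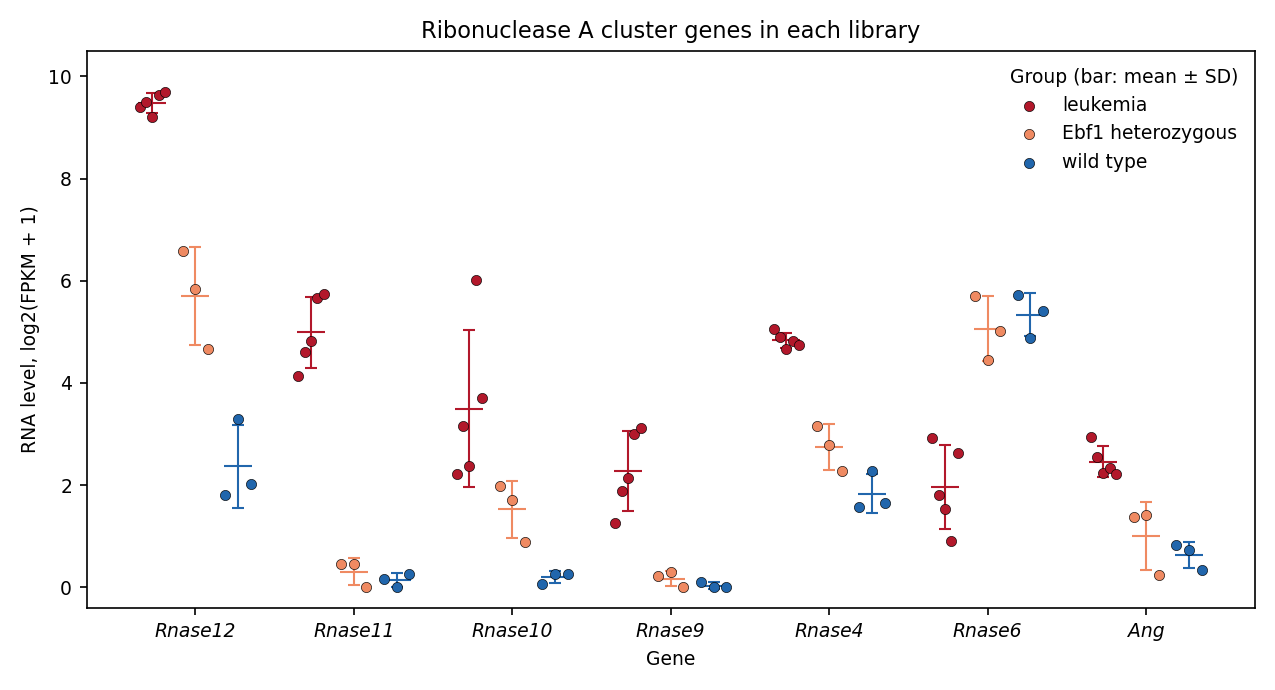
RNA level of each of the 7 ribonuclease genes, as log2(FPKM + 1), in every library (points) of the leukemia (n = 5), Ebf1 heterozygous (n = 3) and wild-type (n = 3) groups, with the mean and SD as bars. Leukemias lay above both other groups for 6 of the genes and below both for Rnase6, while the Ebf1 heterozygous pools lay between the other groups without overlap for Rnase12 and Rnase10.

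The neighbours of Rnase12 on its centromeric side, Rnase11 and Rnase9, were close to undetected outside leukemia. Rnase11 stood at 16.7, 23.2, 27.4, 49.8 and 52.7 FPKM in leukemias 1 to 5, at 0.366, 0.375 and 0 FPKM in Ebf1 heterozygous pools 1 to 3, and at 0.126, 0 and 0.194 FPKM in wild-type pools 1 to 3. Every leukemia lay far above both other groups, which overlapped each other. These values rest on 1557 reads over the leukemias, 7 over the Ebf1 heterozygous pools and 3 over the wild-type pools. Per library total, leukemia had 317 times the wild-type reads, with an exact 95% interval of 108 to 1540, and 142 times those of Ebf1 heterozygous cells (68.8 to 354). The ratio of mean levels between leukemia and wild type was 318 with all libraries and 537 without wild-type pool 3. Its log2 fold change in leukemia was 4.85 (SE 0.35) against wild type and 4.69 (SE 0.36) against Ebf1 heterozygous cells.

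Rnase9 followed Rnase11 at a lower level. It stood at 1.39, 2.70, 3.40, 6.97 and 7.64 FPKM in leukemias 1 to 5, at 0.165, 0.225 and 0 FPKM in Ebf1 heterozygous pools 1 to 3, and at 0.0759, 0 and 0 FPKM in wild-type pools 1 to 3. Every leukemia again lay above both other groups, and leukemias 4 and 5 were high for both genes. Over the groups, 343, 6 and 1 reads were counted in leukemia, Ebf1 heterozygous cells and wild type. The reads per total were 210 times as many in leukemia as in wild type, but 1 wild-type read leaves an exact 95% interval of 37.4 to 8303. Within each leukemia, Rnase11 stood at 6.89 to 12.01 times the FPKM of Rnase9.

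Rnase10, the epididymal sperm-function gene at the far end of the cluster, varied most between leukemias. It stood at 3.67, 7.89, 4.16, 63.8 and 12.1 FPKM in leukemias 1 to 5, at 2.94, 2.25 and 0.859 FPKM in Ebf1 heterozygous pools 1 to 3, and at 0.0541, 0.203 and 0.207 FPKM in wild-type pools 1 to 3. The groups did not overlap, although leukemia 1 lay close to Ebf1 heterozygous pool 1, and leukemia 4 stood far above the other leukemias. The leukemia mean was 18.3 ± 25.6 FPKM with all 5 libraries and 6.96 ± 3.92 FPKM without leukemia 4. The wild-type mean was exceeded 119-fold by all 5 leukemias together and 45.0-fold without leukemia 4, and the Ebf1 heterozygous mean 9.09-fold and 3.45-fold. Between Ebf1 heterozygous cells, with 135 reads, and wild type, with 10 reads, the ratio of reads per total was 12.9 (exact 95% interval 6.81 to 27.6).

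Male tract markers were read beside these divergent genes, since that is where the genes are best known. Of 7 such markers, Lcn8, Lcn5, Defb42, Adam7 and Wfdc10 were at 0 in all libraries. The 7 summed to 0.740 to 6.28 FPKM in leukemia, to 0.0461 to 0.173 FPKM in Ebf1 heterozygous cells and to 0 to 0.102 FPKM in wild type. Nearly all of the leukemia sum was Crisp1, a secreted protein of the epididymis, at 2.56 ± 2.21 FPKM (SD, n = 5).

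Rnase4 and Ang, which share their first exons, were higher in leukemia by smaller amounts than Rnase12. Rnase4 stood at 32.3, 28.7, 24.5, 27.1 and 25.8 FPKM in leukemias 1 to 5, at 7.95, 5.94 and 3.82 FPKM in Ebf1 heterozygous pools 1 to 3, and at 1.99, 3.84 and 2.14 FPKM in wild-type pools 1 to 3. Leukemias lay above both other groups, and Ebf1 heterozygous pool 3 lay just below wild-type pool 2. The Rnase4 mean in leukemia was 10.4-fold that of wild type and 4.69-fold that of Ebf1 heterozygous cells, and its coefficient of variation over leukemias, 10.9%, was the lowest of the 7 genes. Its log2 fold change was 3.00 (SE 0.17) in leukemia against wild type and 2.09 (SE 0.19) against Ebf1 heterozygous cells.

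Ang, the angiogenic member, was low throughout. It stood at 6.73, 4.85, 3.73, 4.06 and 3.67 FPKM in leukemias 1 to 5, at 1.59, 1.68 and 0.187 FPKM in Ebf1 heterozygous pools 1 to 3, and at 0.778, 0.661 and 0.271 FPKM in wild-type pools 1 to 3. Leukemias lay above both other groups, while Ebf1 heterozygous pool 3 lay below all wild-type pools. The mean in leukemia was 8.09-fold that of wild type and 4.00-fold that of Ebf1 heterozygous cells. Within a leukemia, Rnase4 had 4.804 to 7.05 times the FPKM of Ang.

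Rnase6, the antimicrobial gene of macrophages at the telomeric end, went the other way. It stood at 6.59, 2.49, 1.88, 0.866 and 5.21 FPKM in leukemias 1 to 5, at 51.3, 20.8 and 31.5 FPKM in Ebf1 heterozygous pools 1 to 3, and at 51.5, 28.4 and 41.6 FPKM in wild-type pools 1 to 3. Every leukemia lay below every pool of both other groups, and those groups overlapped. The means were 3.41 ± 2.40 FPKM in leukemia (SD, n = 5), 34.6 ± 15.5 FPKM in Ebf1 heterozygous cells (SD, n = 3) and 40.5 ± 11.6 FPKM in wild type (SD, n = 3), so that the wild-type mean was 11.9 times and the Ebf1 heterozygous mean 10.1 times that of leukemia. The log2 fold change in leukemia was -3.38 (SE 0.43) against wild type and -3.10 (SE 0.46) against Ebf1 heterozygous cells. Monocyte and macrophage markers summed to 58.2 to 159 FPKM in leukemia, 459 to 1839 FPKM in Ebf1 heterozygous cells and 371 to 607 FPKM in wild type, and their part in the Rnase6 difference was not tested.

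By the threshold used across all genes, a limma adjusted p under 0.05, 6 of the 7 genes were higher and 1 lower in leukemia against wild type, where 44.8% of all tested genes were called (20.7% higher and 24.1% lower). Against Ebf1 heterozygous cells 5 were higher and 1 lower, where 21.6% of genes were called (9.31% higher and 12.3% lower), and Rnase10 was not called. With quantile scaling, the calls over all genes in that comparison split into 1568 higher and 1120 lower, against 1039 higher and 1370 lower on the deposited scale. All 7 genes had groups apart in both comparisons with leukemia, beside 46.3% of all genes against wild type (21.2% higher and 25.1% lower) and 29.1% against Ebf1 heterozygous cells (12.9% higher and 16.2% lower). Since these contrasts chose the genes, nothing is read from the counts, and against wild type Rnase11, Rnase10, Rnase9 and Ang reached the tested level of 1 FPKM only through the leukemia libraries, as did Rnase11 and Rnase9 against Ebf1 heterozygous cells.

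Between Ebf1 heterozygous cells and wild type, Rnase12, Rnase10, Rnase4 and Rnase6 reached a mean of 1 FPKM, and Rnase11, Rnase9 and Ang did not. Limma called 0 of these 4 genes and 0% of 11167 genes. At an unadjusted p under 0.05 there were 863 of all genes (7.73%), with 3 of the 4 among them, and voom also called 0. Nothing is read from the count of 3, since the genes were chosen on these libraries and Rnase10 reached 1 FPKM only through the Ebf1 heterozygous pools. The groups were apart for Rnase12 and Rnase10, both higher in Ebf1 heterozygous cells, where 15.6% of all genes were apart (7.53% higher and 8.1% lower). The log2 fold changes were 3.32 for Rnase12, 1.32 (SE 0.32) for Rnase10, 0.91 (SE 0.30) for Rnase4 and -0.27 (SE 0.35) for Rnase6, and that of Rnase6 was 0.03 without Ebf1 heterozygous pool 2. Rnase6 lay below the same-numbered wild-type pool in all 3 Ebf1 heterozygous pools, by little in pool 1. Fitted together with the leukemias, which varied less for Rnase12, this gene was called. Nothing is read from that call, and the count over all genes in that fit is given in the closing section. The aligner also differs with the Ebf1 heterozygous group per the submitters' processing notes. Its part and that of the Ebf1 copy cannot be told apart.

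The make-up of the cluster's RNA was different in each group. Rnase12 made up 88.9% ± 3.00 (SD, n = 5) of the summed FPKM of the 7 genes in leukemia, 54.6% ± 12.7 (SD, n = 3) in Ebf1 heterozygous cells and 10.6% ± 9.09 (SD, n = 3) in wild type. Without wild-type pool 2 the wild-type share was 5.38% ± 1.46 (SD, n = 2). Rnase6 made up 0.429% ± 0.307 in leukemia, 35.98% ± 14.3 in Ebf1 heterozygous cells and 81.9% ± 12.3 in wild type. The summed FPKM was 813 ± 126 in leukemia, 102 ± 50.6 in Ebf1 heterozygous cells and 48.8 ± 7.63 in wild type. Within a library, Rnase12 stood at 102 to 916 times the FPKM of Rnase6 in leukemia, at 0.777 to 2.70 times in Ebf1 heterozygous cells and at 0.0482 to 0.310 times in wild type. These shares and ratios depend on the length behind the FPKM of Rnase6, which was 1071 bases against 2479 exon bases in RefSeq. With the RefSeq length the ratios were 236 to 2119 in leukemia, 1.80 to 6.24 in Ebf1 heterozygous cells and 0.111 to 0.718 in wild type, so that Rnase12 lay above Rnase6 in every Ebf1 heterozygous pool. Rnase6 then made up 0.186% in leukemia, 20.2% in Ebf1 heterozygous cells and 67.7% in wild type.

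**Figure D2:**
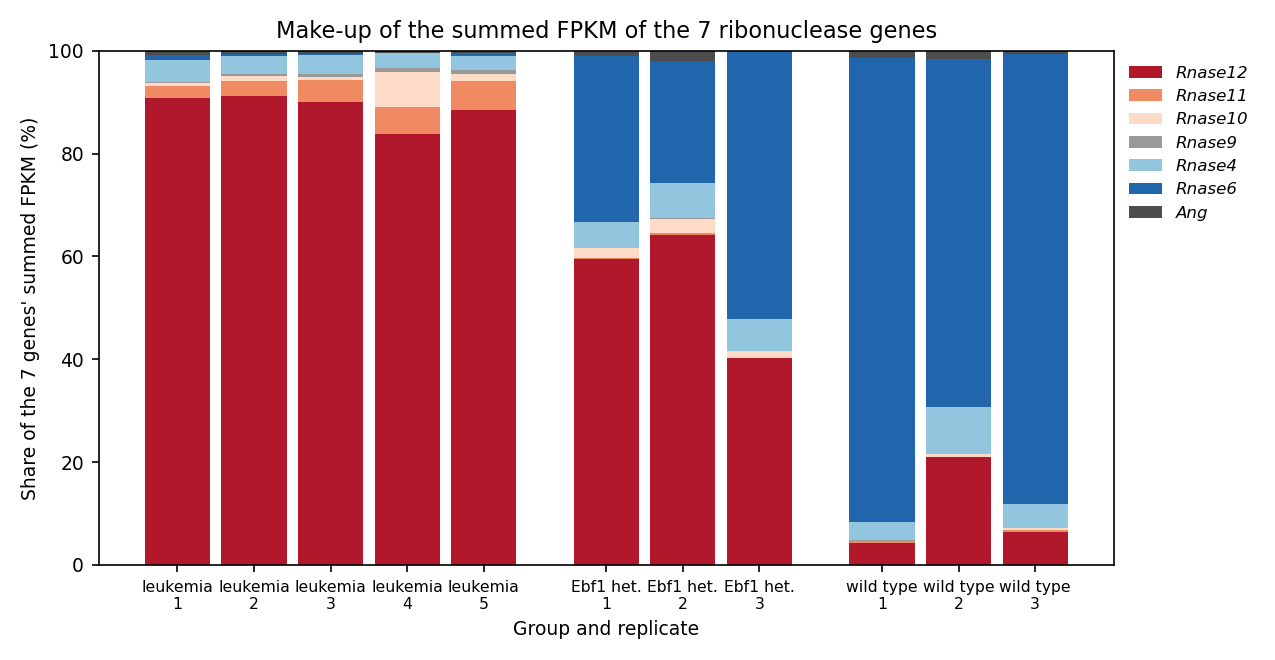
Share of the summed FPKM of the 7 ribonuclease genes taken by each gene (stacked bars, percent) in each leukemia, Ebf1 heterozygous and wild-type library. Rnase12 fills at least 83.9% of every leukemia bar and 40.2% to 64.2% of the Ebf1 heterozygous bars, and Rnase6 fills 67.8% to 90.3% of the wild-type bars.

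The leukemias did not rank alike for all genes. Leukemia 5 was the highest and leukemia 4 the next for Rnase12, Rnase11 and Rnase9, and these same leukemias led for Rnase10 with their order turned round. Leukemia 1 was the highest for Rnase4, Ang and Rnase6. It was the lowest for Rnase11, Rnase10 and Rnase9. Among Ebf1 heterozygous pools, pool 1 was the highest and pool 3 the lowest for Rnase12, Rnase10 and Rnase4. B lineage markers summed to 5123, 3959 and 1778 FPKM in these pools 1 to 3. Megakaryocyte and platelet markers summed to 137, 251 and 3870 FPKM, and granulocyte markers to 10620, 2705 and 3982 FPKM. The part of this make-up in the order of the pools was not tested.

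The genes whose level moved most like Rnase12 over the 11 libraries, by Pearson r of log2(FPKM + 1) among 11173 genes, were Gimap4 (0.991), a GTPase of lymphocytes, Gmds (0.988), an enzyme of GDP-fucose synthesis, Tcf7l1 (0.984), a Wnt-pathway transcription factor, Rnase4 (0.984), Ift57 (0.982), a cilium transport protein, and Pnp (0.982), which breaks down purine nucleosides. Gimap4 stood at 370 ± 54.4 FPKM in leukemia, 38.7 ± 14.7 FPKM in Ebf1 heterozygous cells and 8.81 ± 1.18 FPKM in wild type. For Rnase4 the most alike genes were Tcf7l1 (0.994), Ift57 (0.989) and Gimap4 (0.989). Those most like Rnase6 included Slc2a8 (0.975), a glucose transporter, and Samhd1 (0.969), which breaks down deoxynucleotides. Samhd1 stood at 19.2 ± 5.67 FPKM in leukemia, 47.8 ± 16.3 FPKM in Ebf1 heterozygous cells and 71.2 ± 22.2 FPKM in wild type. These are descriptions over libraries that share their grouping.

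Genes next to the cluster were examined by position. Of 37 annotated genes within 250 kb of the cluster, 19 were in the table and 9 reached a mean of 1 FPKM in a group, and those 9 all lay on the Rnase10 side, where 11 were listed. On the Rnase6 side 0 of 8 listed genes reached that level, and 5 of these 8 (Rnase1, Rnase2b, Ang2, Ear14 and Rnase2a) are themselves ribonuclease A family genes. Against wild type, 7 of the 9 rose in leukemia (Pnp2, Pnp, Apex1, Tmem55b, Tep1, Osgep and Rpph1) and Ttc5 fell. Over all genes, 20.7% were called higher and 24.1% lower. The median log2 fold change of the 9 was 0.99 beside -0.04 over all genes. Rpph1 was not called without leukemia 1, 2, 3 or 5 or wild-type pool 2 or 3 (log2 fold changes of 1.00 to 1.37), nor Ttc5 without wild-type pool 1 (-0.32). Against Ebf1 heterozygous cells 6 of the 9 rose, with a median of 0.81 beside -0.02 over all genes and the 9.31% called higher. Between Ebf1 heterozygous cells and wild type limma and voom called 0 of 11167 genes, neighbours included.

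The nearest expressed neighbours were the purine nucleoside phosphorylases Pnp2 and Pnp. Pnp2 averaged 76.7 ± 34.7 FPKM in leukemia (SD, n = 5), 8.99 ± 2.15 FPKM in Ebf1 heterozygous cells (n = 3) and 4.39 ± 1.87 FPKM in wild type (n = 3), with a log2 fold change of 3.78 in leukemia against wild type (SE 0.42, limma adjusted p = 0.000193). Pnp averaged 228 ± 20.9 FPKM in leukemia, 104 ± 15.0 FPKM in Ebf1 heterozygous cells and 57.8 ± 15.2 FPKM in wild type, a difference of 1.99 on the log2 scale in leukemia (SE 0.17, limma adjusted p = 5.78e-05). They are close copies whose reads the counting may have split wrongly. Apex1, a base excision repair nuclease, averaged 171 ± 6.86 FPKM in leukemia, 77.5 ± 5.59 FPKM in Ebf1 heterozygous cells and 51.8 ± 13.6 FPKM in wild type, a difference of 1.74 on the log2 scale in leukemia (SE 0.16, limma adjusted p = 8.4e-05). Tmem55b, Osgep (a tRNA modification enzyme) and Tep1 (a telomerase-associated protein) rose by less, with log2 fold changes of 0.99, 0.89 and 0.94 against wild type. Apex1 and Tmem55b overlap on opposite strands, where reads cannot be told apart without strand. Against Ebf1 heterozygous cells, Tmem55b and Osgep were no longer called without Ebf1 heterozygous pool 2 (log2 fold changes of 0.63 and 0.64) or pool 3 (0.52 for both).

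**Figure D3:**
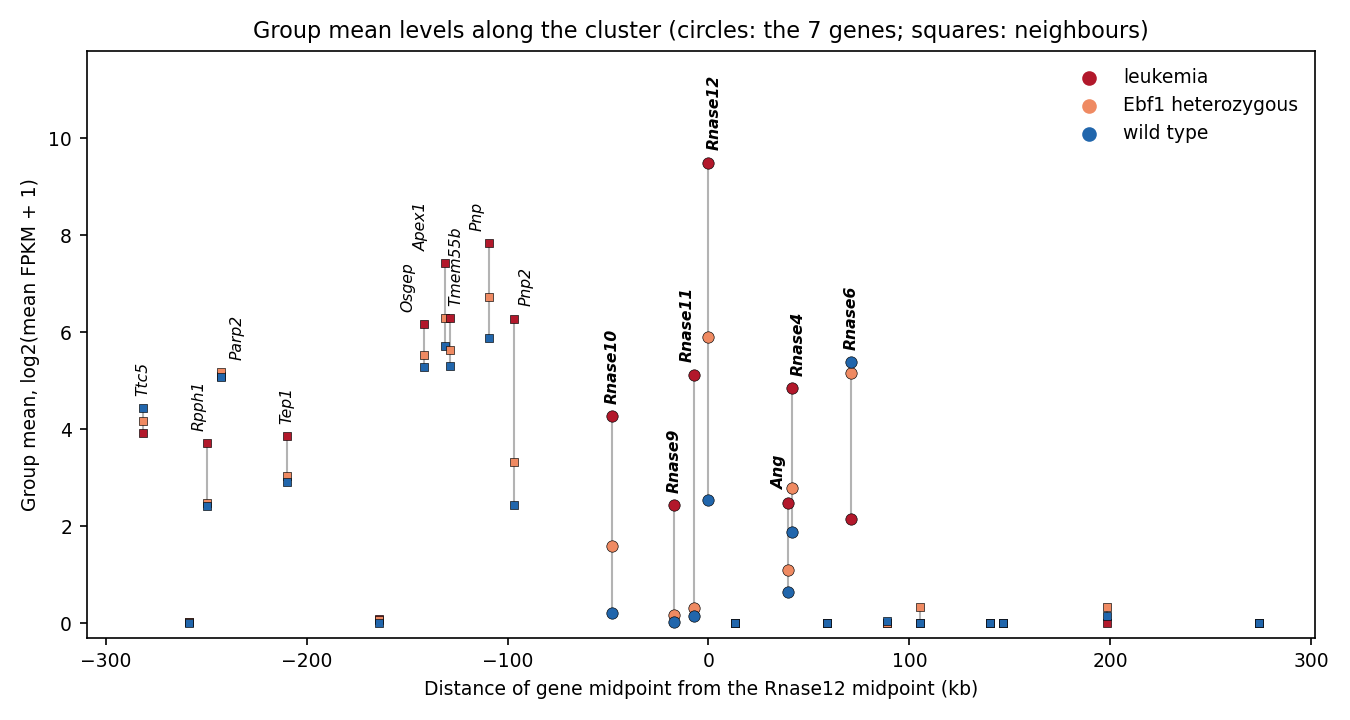
Group mean level, log2(mean FPKM + 1), of the 7 ribonuclease genes (circles) and the listed genes within 250 kb (squares) against the distance of each gene's midpoint from that of Rnase12 in kb, for leukemia, Ebf1 heterozygous and wild type. Rnase12 in leukemia is the highest point, at a mean of 720 FPKM, and the neighbours beyond Rnase6 lie near 0 in all 3 groups.

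Of 16 other ribonuclease A family genes listed, 9 were at 0 in every library and 3 reached the tested level. These were the eosinophil-associated ribonucleases Ear1, Ear2 and Ear6. All 3 fell in leukemia against wild type and against Ebf1 heterozygous cells, beside the 24.1% and 12.3% of genes called lower. They reached the tested level only through the bone marrow pools, which fixed their direction. Nothing is read from these calls or their p-values. Ear1 was at 0 in all 5 leukemias, and averaged 24.05 ± 19.5 FPKM in Ebf1 heterozygous cells and 13.7 ± 12.6 FPKM in wild type (SD, n = 3 each). With 3 reads over the leukemias as the floor, it was at least 197-fold lower in leukemia than in wild type (limma adjusted p = 0.000501), or at least 101-fold without wild-type pool 2. Ear6 was also at 0 in all leukemias and at least 42.0-fold lower than in wild type (limma adjusted p = 0.00322), or at least 23.9-fold without wild-type pool 2. Ear2 averaged 0.0225 FPKM in leukemia, from 1 read, against 2.64 ± 0.951 FPKM in wild type (limma adjusted p = 0.000337). Ear genes are near-identical copies, so their split is uncertain. Eosinophil markers summed to 1.19 to 9.60 FPKM in leukemia, 44.1 to 489 FPKM in Ebf1 heterozygous cells and 59.7 to 291 FPKM in wild type, and their part in these differences was not tested.

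Among partners of ribonuclease A family proteins, Rnh1 is the intracellular inhibitor that binds them. It averaged 41.6 ± 5.58 FPKM in leukemia, 52.9 ± 8.38 FPKM in Ebf1 heterozygous cells and 49.7 ± 4.66 FPKM in wild type. It was not called in leukemia against wild type, with a log2 fold change of -0.26 (SE 0.12, limma adjusted p = 0.121). Plxnb2, a plexin that acts as a receptor for angiogenin, rose in leukemia to 31.7 ± 8.89 FPKM, against 15.1 ± 4.71 FPKM in Ebf1 heterozygous cells and 16.4 ± 2.14 FPKM in wild type (log2 fold change 0.88 against wild type, SE 0.21, limma adjusted p = 0.00809). Every leukemia lay above all pools for Plxnb2.

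**Figure D4:**
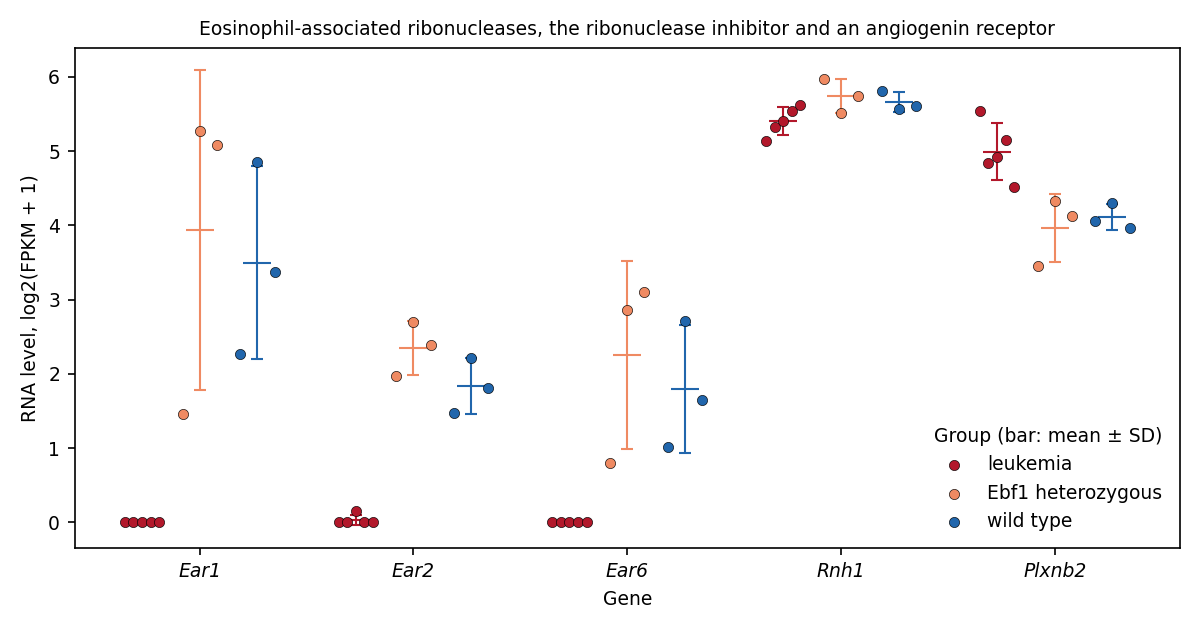
RNA level, log2(FPKM + 1), of the eosinophil-associated ribonucleases Ear1, Ear2 and Ear6, the ribonuclease inhibitor Rnh1 and the angiogenin receptor Plxnb2 in every leukemia, Ebf1 heterozygous and wild-type library (points), with the mean and SD as bars. Ear1 and Ear6 are at 0 in all 5 leukemias, Rnh1 overlaps between groups, and Plxnb2 in leukemia lies between 21.8 and 45.4 FPKM, above all pools.

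Of 13 ribonucleases of other families listed, 12 were tested against wild type, of which 3 rose in leukemia and 0 fell. Over all genes, 20.7% were called higher and 24.1% lower. The 3 were Rnaseh1, which removes RNA from hybrids with DNA, and Rpp25 and Pop1, subunits of ribonuclease P and MRP. The median log2 fold change of the 12 was 0.16 beside -0.04 over all genes. Rpp25 averaged 1.83 FPKM in leukemia, 0.0938 FPKM in Ebf1 heterozygous cells and 0.0565 FPKM in wild type. It reached the tested level only through the leukemia libraries, so nothing is read from its calls. Pop1 averaged 13.2 ± 2.64 FPKM in leukemia, against 7.17 ± 2.32 FPKM in wild type, a difference of 0.82 on the log2 scale (SE 0.21, limma adjusted p = 0.012). Rnaseh1 rose by 0.31 on the log2 scale (limma adjusted p = 0.02), and was not called without wild-type pool 1 or wild-type pool 3 (log2 fold changes of 0.28 and 0.30). Against Ebf1 heterozygous cells 2 of the 12 tested rose, Rpp25 and Pop1, and 0 fell, beside 9.31% of all genes called higher and 12.3% lower. Pop1 was not called without leukemia 1, 2, 3 or 5 or Ebf1 heterozygous pool 1 or 2 (log2 fold changes of 0.49 to 0.81).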

How the data were processed

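RNA of 11 mouse libraries (5 leukemia, 3 Ebf1 heterozygous, 3 wild type) was analysed from the FPKM table of 23071 identifiers that the authors deposited. On mm10 (GRCm38), the aligner named was BWA 0.7.12 for leukemia and wild type, and TopHat2 with Cufflinks for Ebf1 heterozygous cells, per the submitters' processing notes. How reads were counted, on which gene models and with or without strand is not stated in the labels. The deposited FPKM of all 17380 identifiers above 0 were whole reads, within 0.001 read, for whole-number library totals and gene lengths. This held in the libraries of all groups, Ebf1 heterozygous cells included, with the same length per gene. The length equalled the RefSeq exon length for 61.2% of these identifiers and for 6 of the 7 ribonuclease genes. Rnase6 fitted 1071 bases, against 2479 in RefSeq. Identifiers that were bare numbers (27) were not named.

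Differences used log2(FPKM + 1), which understates the change of low genes. Limma 3.58.1 (R 4.3.3, two-sided, eBayes using a mean-variance trend) compared each pair of groups by itself, over genes averaging 1 FPKM or more in it. Its p-values were adjusted over all genes tested (Benjamini-Hochberg), and a gene was called under 0.05. The script was tested on simulated data. P-values measure the spread between these mice and pools. Ratios of summed reads have exact binomial 95% intervals. Alternatives were a pseudocount of 0.1, no filter, a filter of 5 FPKM, median-ratio and quantile scaling, a joint fit of all 3 groups, the replicate number as a block, voom (limma) on the recovered reads with their library totals and leaving out each library. Same-numbered Ebf1 heterozygous and wild-type pools deviated together from their group means (correlations across genes of 0.652, 0.325 and 0.690). These numbers were taken as pairs in the replicate block only, from the data and not the labels. The main fits left the pairs out. Numbers did not pair leukemias with either group.

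The 7 genes, the other gene lists and the markers were chosen with earlier results of these data known. Named genes were the 7, listed genes averaging 1 FPKM or more in a group, the 6 nearest expressed neighbours on each side, and the 6 genes most alike by Pearson r. A gene among those most alike is not reported here. Promoter windows came from RefSeq (GRCm38.p6) and gene positions from GENCODE M21. Protein sequences were not used here. Sequence work used Biopython 1.88 and SciPy 1.17.1 in Python 3.11.15, and plots Matplotlib 3.10.9.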

Additional observations from a re-analysis of the deposited data

Results flagged for a closer look

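In 28 combinations of gene and leukemia group, the gap between the highest or lowest leukemia and the next, as a share of the whole range, was set against Dixon's 95% critical value of 0.71 for 5 samples. Chance passes it in about 1 of 20 groups, and 3 passed. Rnase10 stood at 63.8 FPKM in leukemia 4, while the other leukemias held 3.67 to 12.1 FPKM, a gap of 0.86 of the range. Rpp25, a subunit of ribonuclease P, stood at 3.73 FPKM in the same leukemia 4, against 1.08 to 1.80 FPKM in the other leukemias. Ear2 stood at 0.113 FPKM in leukemia 3, a single read, and at 0 in the other leukemias.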

How the results depend on the processing

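Leaving out each library in turn, 7 to 7 of the 7 genes were called against wild type, beside 34.7% to 42.9% of all genes, and 6 to 6 against Ebf1 heterozygous cells, beside 15.5% to 23.8%. Between Ebf1 heterozygous cells and wild type 0 to 0 were called. These genes were chosen on the same contrasts, so this is no support for their differences. With all 3 groups in 1 fit, 1 of the 7 genes, Rnase12, was called between Ebf1 heterozygous cells and wild type, against 0 in the 2-group fit. The count over all genes in that fit is given below. Voom did not call Rnase10 in leukemia against wild type (log2 fold change 6.01), leaving 6 of 7 beside 4750 of all 10968 genes. A filter of 5 FPKM left 5 and 4 of the genes to be called in the comparisons with leukemia. Nothing is read from these counts either. The only sign change among the 7 genes was Rnase6 between Ebf1 heterozygous cells and wild type, at 0.0317 without Ebf1 heterozygous replicate 2 (left-out libraries ran from -0.60 upwards), where its paired wild-type pool 2, the lowest of that group, stayed in.

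The replicate block changed no call of the 7 genes: 7, 6 and 0 were called. Nothing is read from these counts, since the same contrasts chose the genes. In leukemia against Ebf1 heterozygous cells, where the numbers do not pair, the block left 944 genes called, against 2409. Between Ebf1 heterozygous cells and wild type, genes called were 0, but 3 with a pseudocount of 0.1, 23 with all groups in 1 fit and 5 without Ebf1 heterozygous pool 3. Depth limits Rnase11 and Rnase9 outside leukemia, where 1 to 7 reads per group set their ratios.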
